A study of Drosophila melanogaster with 2 samples.

Results

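The microRNA (miRNA) precursor genes of Drosophila melanogaster are described here by the peaks of tagged Dif found near them. They were chosen as the genes that Ensembl annotates with a pre_miRNA transcript on the arms 2L, 2R, 3L, 3R, 4 and X, which gave 260 precursors among 17683 annotated genes other than transposable elements. A further 2 precursors, on the ribosomal DNA scaffold, were not used. The data come from chromatin immunoprecipitation and sequencing (ChIP-seq) on whole wandering larvae of the third instar, with both sexes pooled. The larvae carried a stable transgene for Dif fused to GFP at its C terminus, and the precipitation used an antibody against GFP. The labels give 1 group of 2 biological replicates, numbered 3 and 4, with no other genotype, stage or treatment. Whole larvae mix all tissues, so a peak cannot be assigned to a cell type, and the files do not show whether a site is bound by untagged Dif. Control libraries were not analysed here.

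Dif is a transcription factor of the NF-κB family, released by Toll signalling when a fly meets certain microbes. A miRNA is made from a longer primary transcript, which the Drosha enzyme crops to a hairpin precursor and Dicer-1 cuts to the mature RNA. The mature RNA guides Argonaute to target messages, mainly through its seed, which is bases 2 to 8. The start of a primary transcript can lie far upstream of the hairpin, so a factor that acts on a miRNA gene need not sit at the precursor itself. Several fly miRNAs act in the timing of metamorphosis, growth, metabolism and immune signalling, which are all under way in larvae at this stage.

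The mature RNAs below belong to the loci on which the results turn. They were read from the Release 6 assembly at the positions RefSeq annotates, and capitals mark the seed. The first group comes from precursors with a peak within 500 bp and from others of the same clusters. Of these, mir-317 lies upstream of the annotated primary transcript of mir-277 and mir-34 and had no peak within 500 bp.
miR-34-5p (chr3R:10100952-10100975, plus strand): uGGCAGUGugguuagcugguugug
miR-277-3p (chr3R:10100080-10100102, plus strand): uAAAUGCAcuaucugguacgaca
miR-317-3p (chr3R:10091181-10091204, plus strand): uGAACACAgcuggugguauccagu
miR-279-3p (chr3R:29215651-29215672, plus strand): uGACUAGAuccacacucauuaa
miR-996-3p (chr3R:29217244-29217265, plus strand): uGACUAGAuuucaugcucgucu
miR-275-3p (chr2L:7425853-7425875, plus strand): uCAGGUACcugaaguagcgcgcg
miR-305-5p (chr2L:7425979-7426001, plus strand): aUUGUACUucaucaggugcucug

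The second group comes from precursors whose IDR peaks lay beyond 500 bp but within 5000 bp.
miR-100-5p (chr2L:18471445-18471466, plus strand): aACCCGUAaauccgaacuugug
let-7-5p (chr2L:18472044-18472064, plus strand): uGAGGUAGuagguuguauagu
miR-125-5p (chr2L:18472343-18472364, plus strand): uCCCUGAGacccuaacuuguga
bantam-3p (chr3L:642259-642281, plus strand): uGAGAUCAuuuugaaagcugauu
miR-9a-5p (chr3L:19565140-19565162, plus strand): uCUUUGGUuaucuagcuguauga
miR-2a-3p, from mir-2a-1 (chr2L:19569902-19569924, minus strand): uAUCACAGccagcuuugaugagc
miR-2c-3p (chr3R:15417761-15417783, minus strand): uAUCACAGccagcuuugaugggc
miR-13b-3p, from mir-13b-1 (chr3R:15417412-15417433, minus strand): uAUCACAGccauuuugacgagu
miR-11-3p (chr3R:21622504-21622524, minus strand): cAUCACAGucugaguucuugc
The mature RNAs of mir-279 and mir-996 share their seed, as do the last 4 lines above, whose seed was found in 14 precursors in all.

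Few precursors had a peak close by. The authors' list selected by irreproducible discovery rate (IDR), which asks whether replicates put peaks in a like order, held 4175 peaks. A summit of this list lay within 500 bp of 14 of the 260 precursors (5.38%, exact 95% interval 2.97% to 8.87%). The same held for 17.5% of all annotated genes, which are longer and so offer more room. Precursors have a median length of 92 bp, and of all windows of this length along the arms 3.15% had an IDR summit within 500 bp. Among other short RNA genes, 11.4% of 290 tRNA genes and 8.18% of 269 snoRNA genes had one, with exact intervals of 7.96% to 15.6% and 5.20% to 12.1%. The interval of the precursors thus overlaps those of the tRNA and snoRNA genes and holds the share of the arm windows. These intervals cover counting error only, and neighbouring genes can share a peak.

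Within 5000 bp the share was close to that of other genes. An IDR summit lay within this distance of 93 precursors (35.8%, exact interval 29.9% to 41.9%), against 37.0% of all annotated genes. It did so for 35.5% of tRNA genes, 47.6% of snoRNA genes, 38.4% of protein-coding genes and 20.3% of the arm windows. The interval of the precursors lies above the share of the arm windows.

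The relaxed lists hold 30000 peaks and background regions each, called in both replicates pooled and in each replicate. In the pooled list a summit lay within 500 bp of 85 precursors (32.7%), against 59.8% of all annotated genes, 66.6% of tRNA genes, 55.8% of snoRNA genes and 20.7% of arm windows. The exact interval of the precursors, 27.0% to 38.8%, did not reach those of the tRNA genes (60.8% to 72.0%) or the snoRNA genes (49.6% to 61.8%). Within 5000 bp the pooled list reached 213 precursors (81.9%), against 84.7% of all annotated genes. Replicate 3 had a summit within 500 bp of 87 precursors, against 59.3% of all annotated genes, and within 5000 bp of 213, against 85.2%. Replicate 4 had one within 500 bp of 73 precursors, against 60.9%, and within 5000 bp of 206, against 86.3%. Both replicates had a summit within 500 bp of the same 50 precursors, or 57.5% of the precursors found with replicate 3 and 68.5% of the precursors found with replicate 4, and neither had one there for 150. When the summits of both replicates also had to lie within 100 bp of each other, 26 precursors remained. The overlap of the replicates was not counted over all annotated genes, so it cannot be called particular to precursors.

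**Figure D1:**
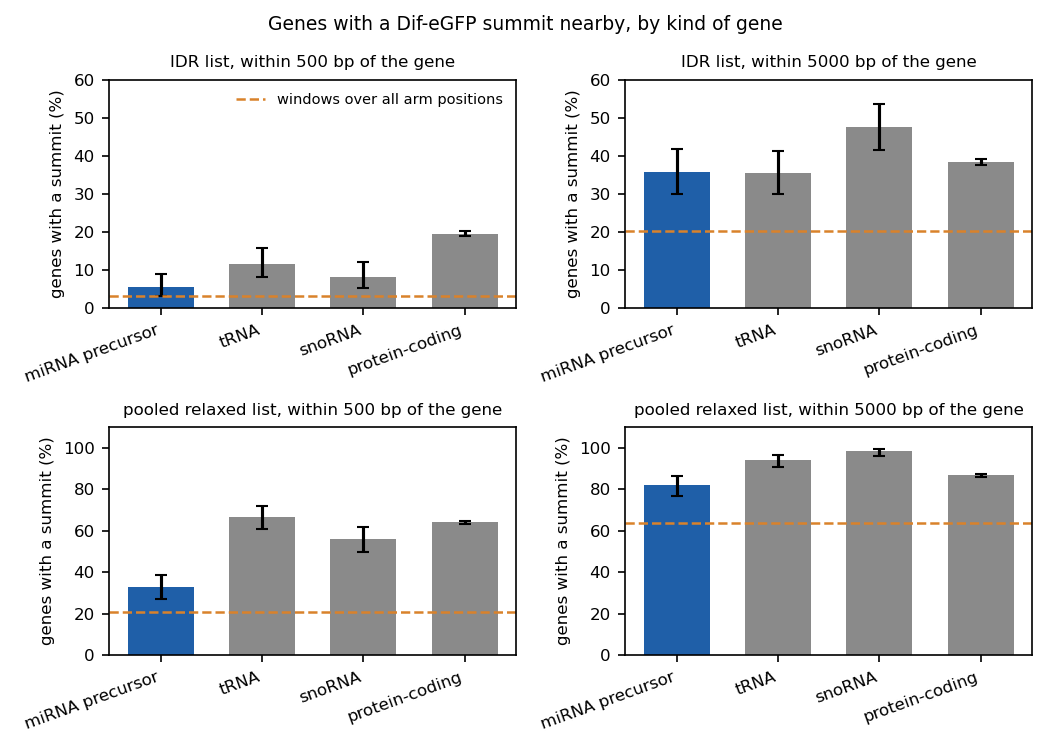
Percent of genes with a summit within 500 bp (left) and 5000 bp (right) in the IDR list (top) and the pooled relaxed list (bottom), for miRNA precursors (blue) and 3 other kinds of gene (grey), with exact 95% intervals for counting error. The dashed line is the share of all windows of the median precursor length along the arms; precursors stand at 5.38% and 35.8% in the IDR list, above the line at 3.15% and 20.3%.

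The 14 precursors with an IDR summit within 500 bp fall into 13 transcription units, joining precursors on the same strand with gaps of at most 10000 bp, and rest on 14 distinct peaks. These units are set by distance alone and need not be single transcripts. For instance, mir-317 is joined to mir-277 and mir-34 though it lies outside their annotated primary transcript. In every case both replicates also had a relaxed summit within 500 bp of the precursor, though not always at the same place. A summit of both replicates lay within 100 bp of 11 of the 14 peaks (78.6%), against 85.4% of all IDR peaks. The peak at mir-14 had none of either replicate there, that at mir-9374 none of replicate 3 and that at mir-4962 none of replicate 4. The signals of these 14 peaks ran from 84.3 to 384 with a median of 136, against 83.9 to 4992 and a median of 134 over the whole IDR list. The signal is the authors' own value, and it is compared here only within a list. Of the 14 peaks, 4 (28.6%) lay within 500 bp of an annotated start site of a protein-coding gene or a longer non-coding RNA, against 58.1% of all IDR peaks.

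The strongest of the 14 was at mir-34, a miRNA known for roles in ageing and the upkeep of the nervous system. Its precursor lies at chr3R:10100936-10101034 in the non-coding host lncRNA:CR43459, its primary transcript. The peak at chr3R:10100562-10100746 had a signal of 384 and rank 299 of the IDR list, with the summit 290 bp upstream. The strongest region within 500 bp ranked 268 in replicate 3, with a signal of 321, and 999 in replicate 4, with a signal of 64.2. The same summit lay 525 bp downstream of mir-277, known as a regulator of branched-chain amino acid breakdown, just beyond the 500 bp limit.

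Another precursor known from development was mir-279, which represses the formation of carbon dioxide-sensing neurons. It had 2 peaks within 500 bp, one on each side, inside its primary transcript lncRNA:CR31044. The upstream peak lay at chr3R:29215069-29215180, 456 bp away, with a signal of 198, rank 1504 in replicate 3 and rank 418 in replicate 4. The downstream one lay at chr3R:29215727-29215970, 165 bp away, with a signal of 147, rank 1518 in replicate 3 and rank 5216 in replicate 4. Both also lay within 5000 bp of mir-996, which shares the seed and the primary transcript.

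The clustered precursors mir-275 and mir-305 shared 1 peak, at chr2L:7425608-7425851. Its summit was 65 bp upstream of mir-275 and 242 bp upstream of mir-305. Its signal of 85.7 was near the bottom of the IDR list, at rank 4049. It ranked 18398 in replicate 3, with a signal of 26.2, and 1403 in replicate 4, with a signal of 54.3, so that replicate 4 placed it far higher. A stronger IDR peak 3186 bp upstream of mir-275, at chr2L:7422564-7422665, had a signal of 370 and ranked 386 and 261 in replicates 3 and 4.

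The precursor of mir-14, a miRNA known for limiting cell death and for roles in fat metabolism, had an IDR summit 328 bp upstream with a signal of 97.9. No summit of either replicate lay within 100 bp of it. The strongest region within 500 bp of mir-14 ranked 6093 in replicate 3 and 1677 in replicate 4, with summits 444 and 198 bp upstream. A second IDR peak, with a signal of 128, lay 891 bp upstream and 27 bp from the start of the primary transcript lncRNA:CR43651, where the replicates ranked it 2405 and 1561. At mir-314, an intergenic precursor at chr3L:11773012-11773101, the summit was 140 bp upstream with a signal of 107, at rank 3623 in replicate 3 and 9204 in replicate 4.

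Several of the others lie in or beside protein-coding genes. The second strongest peak of the 14 was at mir-4985, with a signal of 348, ranks of 375 in replicate 3 and 1186 in replicate 4, and a summit 181 bp upstream of the precursor and 47 bp from a start of its host Fatp3, a fatty acid transport protein. In mir-9377, inside Tis11, whose RNA-binding product promotes mRNA decay, the summit fell within the precursor, at chrX:12665167-12665296. It had a signal of 335 and ranked 237 in replicate 3 and 1283 in replicate 4. At mir-9374, inside Hr39, which encodes a nuclear receptor, the peak lay 347 bp upstream with a signal of 287. The strongest region within 500 bp of mir-9374 ranked 1022 in replicate 3 and 245 in replicate 4, with summits 471 and 326 bp upstream. These 3 peaks and that of mir-34 ranked between 299 and 570 in the IDR list, ahead of the others of the 14.

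At mir-4986, in CG6749, the summit lay 108 bp upstream with a signal of 134, and the ranks were 2755 in replicate 3 and 3003 in replicate 4. At mir-9388, near the start of Mes2, it lay 257 bp downstream with a signal of 138 and ranks of 2324 and 1388 in replicates 3 and 4. The mir-954 precursor, on arm 4, held the summit within it and lay 104 bp from a start of mav, with a signal of 117 and ranks of 2959 and 4665. The mir-4962 precursor, in the Tousled-like kinase gene Tlk, also held the summit, with a signal of 97.1 and the strongest region within 500 bp at ranks 1680 and 4997. Near mir-4978, on the strand opposite to mam, the Notch coactivator Mastermind, the summit lay 124 bp downstream with a signal of 84.3 and ranks of 4536 and 4325. Of these 5 peaks, those at mir-9388 and mir-4986 ranked 1995 and 2100 in the IDR list and the other 3 ranked lower, and the replicates' ranks at mir-4986 and mir-4978 lay close together.

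**Figure D2:**
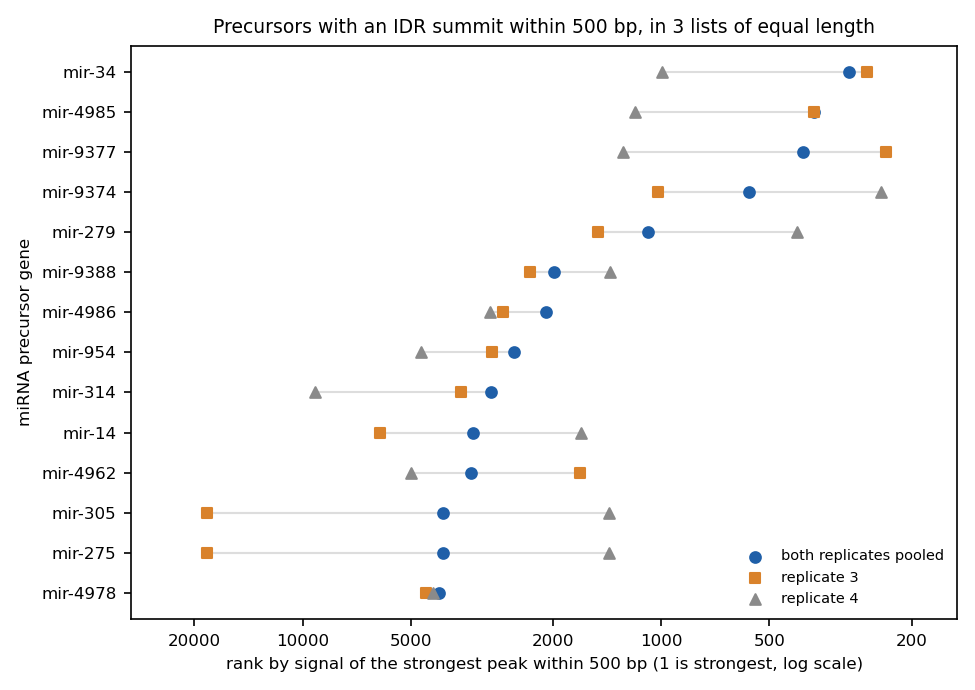
Rank by signal, on a log axis with stronger peaks to the right, of the strongest region within 500 bp of each of the 14 precursors in the pooled list (blue), replicate 3 (orange) and replicate 4 (grey), which hold 30000 regions each. The peak shared by mir-275 and mir-305 ranked 18398 in replicate 3 and 1403 in replicate 4, the widest gap, while the ranks of mir-4978 were 4536 and 4325.

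The count of precursors with an IDR summit close by depended on the 500 bp limit. Just inside it lay mir-14 and mir-9374, at 328 and 347 bp, and just outside lay mir-282 (522 bp upstream, signal 93.9), mir-277 (525 bp) and mir-4917 (535 bp downstream, signal 305). At 1000 bp the count was 26 and at 200 bp it was 9. To compare ranks between replicates, the strongest region within 500 bp was used for the 14 precursors with an IDR summit there. For the other 79 it was the strongest within 5000 bp. By this measure the ratio between the replicates' ranks was largest for mir-275 and mir-305, at 13.1. Within 5000 bp, both had strongest regions of rank 386 and 261 in replicates 3 and 4. The next largest ratios were those of mir-4918 (ranks 1386 and 17061 in replicates 3 and 4), mir-4949 (6009 and 607) and mir-9378 (1171 and 11294), each by the strongest region within 5000 bp. For mir-4918 these regions were different sites, 4363 bp downstream in replicate 3 and 600 bp upstream in replicate 4. The same was true of others, such as mir-4980, at 3121 bp upstream in replicate 3 and 4981 bp downstream in replicate 4. Over the 93 precursors with an IDR summit within 5000 bp, with both windows mixed in this way, the median ratio was 2.15. Of the 93, 62 were ranked better in replicate 3. Clustered precursors repeat shared peaks in these values, and the ratio was not taken over all IDR peaks.

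For 5 of the 10 precursors with the strongest IDR peak between 500 and 5000 bp, that peak lay within 500 bp of a start of a protein-coding gene. Of all IDR peaks, 58.1% lay within 500 bp of a start of a protein-coding gene or a longer non-coding RNA. The strongest peak near these 10 precursors was 4564 bp from mir-4970 and 24 bp from a start of CG12299. It had a signal of 2780, at rank 4 of replicate 3 and 3 of replicate 4. A peak of 917 lay 1241 bp upstream of mir-967 and 85 bp from a start of its host bun. A peak of 754 lay 733 bp upstream of mir-4968 and 314 bp from a start of Mob2, its host. The pair mir-11 and mir-998, in an intron of the cell cycle gene E2f1, had a peak of 523 at 4036 and 3418 bp downstream, 575 bp from a start of InR, the insulin receptor gene. The other genes of these 10 were mir-317 (690), mir-4962 (490), mir-965 (455), mir-4978 (439) and mir-4972 (436). The peaks near mir-965 and mir-4978 had no summit of replicate 4 within 100 bp. At mir-4978 a replicate 4 summit of rank 195 lay just past this limit, 973 bp upstream of the precursor, with the IDR summit 872 bp upstream.

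Of the 134 distinct IDR peaks within 5000 bp of a precursor, 62 (46.3%) lay within 500 bp of a start site where a protein-coding gene was nearest. A longer non-coding RNA was nearest for 14 (10.4%), and 58 (43.3%) had no start within 500 bp. A start of either kind lay within 500 bp of 56.7% of the 134, against 58.1% of all IDR peaks. Signals of the 134 ran from 84.1 to 2780 with a median of 137. A summit of both replicates lay within 100 bp for 84.3% of them, against 85.4% of all IDR peaks.

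More of these summits lay upstream of the precursor than downstream. Among pairs of a precursor and an IDR summit within 5000 bp, 116 were upstream, 3 inside and 66 downstream, so that 62.7% were upstream. Counted over transcription units rather than precursors, 82 were upstream, 8 inside and 47 downstream, or 59.9% upstream. Around tRNA genes 55.4% of such pairs were upstream, and around snoRNA genes, most of which lie in introns of host genes, 77.3%.

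**Figure D3:**
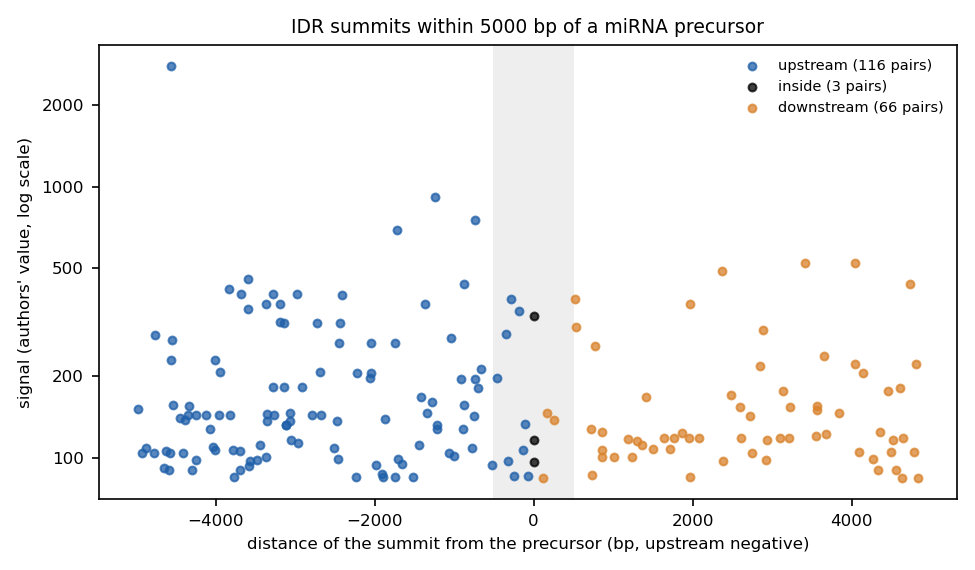
Signal, on a log axis, of each IDR summit within 5000 bp of a precursor against its distance from that precursor, with upstream negative by the strand of the precursor and the 500 bp window shaded. A peak near several precursors gives a point for each; 116 points lie upstream and 66 downstream, and the highest, at 2780, belongs to mir-4970.

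The start sites of the annotated primary transcripts carried peaks more often than the precursors did. RefSeq names 24 non-coding genes as primary miRNA transcripts, which are 986 to 43950 bp long. Of these, 11 (45.8%, exact interval 25.6% to 67.2%) had an IDR summit within 500 bp of a start, against 8.33% of all non-coding RNA genes other than precursors and 15.3% of protein-coding genes. These transcripts are long and some have several starts. Among those with 1 start, 6 of 16 had a peak (37.5%), against 7.61% of the non-coding genes with 1 start. Among those with more, 5 of 8 did, against 21.7%. Among non-coding genes at least as long as the shortest primary transcript, 986 bp, the share was 11.8%. This cut does not match length, since the median primary transcript was 5422.5 bp long. Whether the length or the number of starts sets this share was not tested beyond these values.

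The strongest was the start of lncRNA:CR44206, the primary transcript of mir-184, with a signal of 336 and ranks of 395 in replicate 3 and 582 in replicate 4. The mir-184 precursor itself had no IDR summit within 5000 bp. The same was true of mir-bft (mir-263a), which protects sensory cells from death and whose primary transcript lncRNA:CR43314 had a peak of 263 at its start, with ranks of 623 and 1037. The start of lncRNA:CR42651, for the Hox-linked mir-10, had a peak of 222 with ranks of 1136 and 724. That of lncRNA:CR45916, for mir-9a, which restrains sensory organ precursor number, had a peak of 207 at chr3L:19562396-19562484, 190 bp from the start, with ranks of 2194 and 505. All of these were in both replicates.

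Starts with lower signals included those of let-7-Complex and bantam. The peak 44 bp from the start of lncRNA:let7C, the primary transcript of mir-100, let-7 and mir-125, had a signal of 109 and ranks of 4178 and 2516. Another 2 IDR peaks lay within the same transcript, 2469 and 3698 bp upstream of mir-100, with signals of 137 and 90.6. The peak at lncRNA:CR43334, the primary transcript of bantam, which promotes growth and blocks cell death, was 12 bp from a start, with a signal of 109. It ranked 3254 in replicate 3 and 13376 in replicate 4. The strongest replicate 4 summit within 500 bp of any start of this transcript ranked 1868. The start of lncRNA:CR43650, for mir-8, a growth regulator in the fat body, had a peak of 181 with ranks of 1394 and 2910. That of lncRNA:CR45911, for mir-13b-1, mir-13a and mir-2c, had a peak of 183 with ranks of 1052 and 1599. The remaining starts with an IDR summit were those of mir-277 and mir-34 (171), mir-14 (128) and mir-276a (128).

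Of the other 13 primary transcripts, 7 had a pooled relaxed summit at a start, among them those of mir-279 with mir-996, mir-958 and the brain miRNA mir-124. The other 6, which included the muscle miRNA mir-1 and the maternal clearance cluster of mir-309, had none in the pooled list. The start for mir-1 had a replicate 3 summit at rank 28160 and none of replicate 4. Pooled summits at starts were not counted over other genes, so these counts cannot be called particular to primary transcripts. Over all non-coding RNA genes other than precursors, 44.9% had a pooled summit within 500 bp of the gene. That measure covers the whole gene and not its starts alone.

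**Figure D4:**
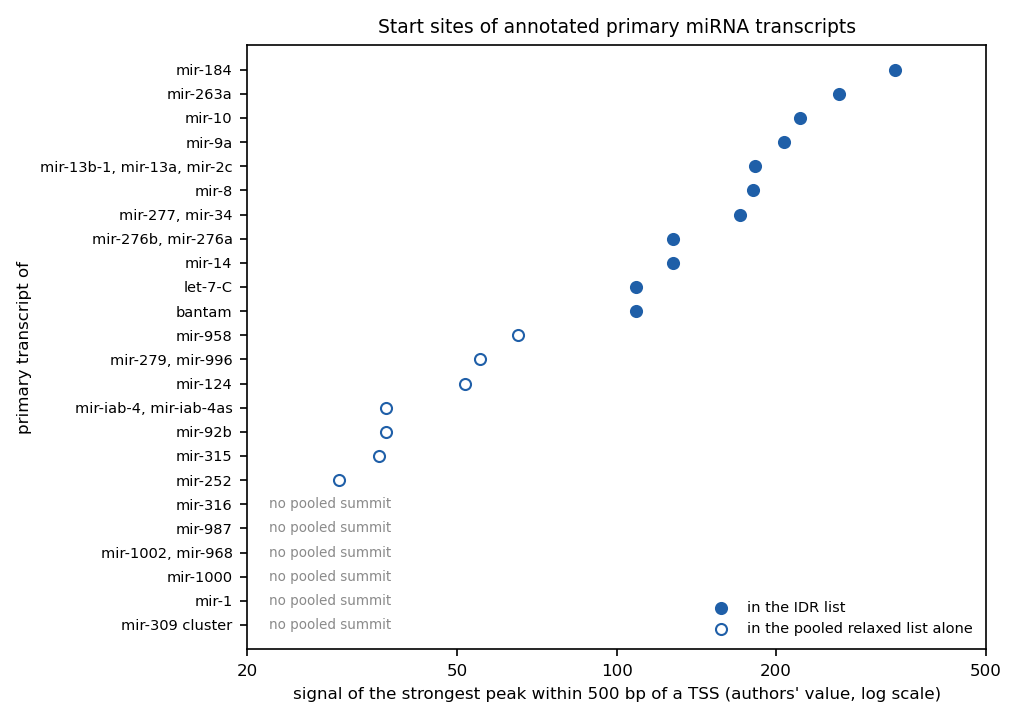
Signal in the pooled list, on a log axis, of the strongest region within 500 bp of a start of each of 24 primary miRNA transcripts, filled where it is in the IDR list and open where it is in the relaxed list alone. The filled points run from bantam and let-7-Complex at 109 to mir-184 at 336, and 6 transcripts have no pooled summit.

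Precursors lie in hosts of different kinds. A protein-coding gene on the same strand holds 136 of them, of which 45 had an IDR summit within 5000 bp, and a non-coding gene holds 46, of which 19 did. Of 51 intergenic precursors 23 did, and of 27 that lie on the strand opposite to a gene 6 did. Within 500 bp the counts were 5, 4, 4 and 1. The 128 protein-coding hosts had an IDR summit within 500 bp of a start in 48 cases (37.5%, exact interval 29.1% to 46.5%), against 15.3% of all protein-coding genes, but they are longer and have more starts. Their median length was 14094 bp, against 2166 bp over all protein-coding genes. Among hosts with 1 start 12 of 56 (21.4%) had a peak, against 9.35% of all such genes. Among those with 2 or 3 starts 22 of 52 (42.3%) did, against 27.2%. With 4 or more starts it was 14 of 20 (70.0%), against 64.5%. Host length was not matched.

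At the locus of mir-317, mir-277 and mir-34 on 3R, 5 distinct IDR peaks lay within 5000 bp of a precursor. More lay within this distance of mir-4962 (8), mir-4978 (7) and mir-282 (6), the first in Tlk and the second opposite to mam. The precursors of mir-277 and mir-34 are cut from the same primary transcript. The strongest peak, at chr3R:10089317-10089530, had its summit 1713 bp upstream of mir-317, a signal of 690, and ranks of 94 in replicate 3 and 79 in replicate 4. A peak of 421 lay 3828 bp upstream of mir-317, with ranks of 284 and 897, and one of 132 lay 3108 bp upstream, with ranks of 2064 and 21258. A peak of 171 lay 66 bp from the start of lncRNA:CR43459, with ranks of 1122 and 4238. The last was the peak of 384 between mir-277 and mir-34. The start sites nearest to the peaks of 690 and 421 were 4348 and 3917 bp away.

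**Figure D5:**
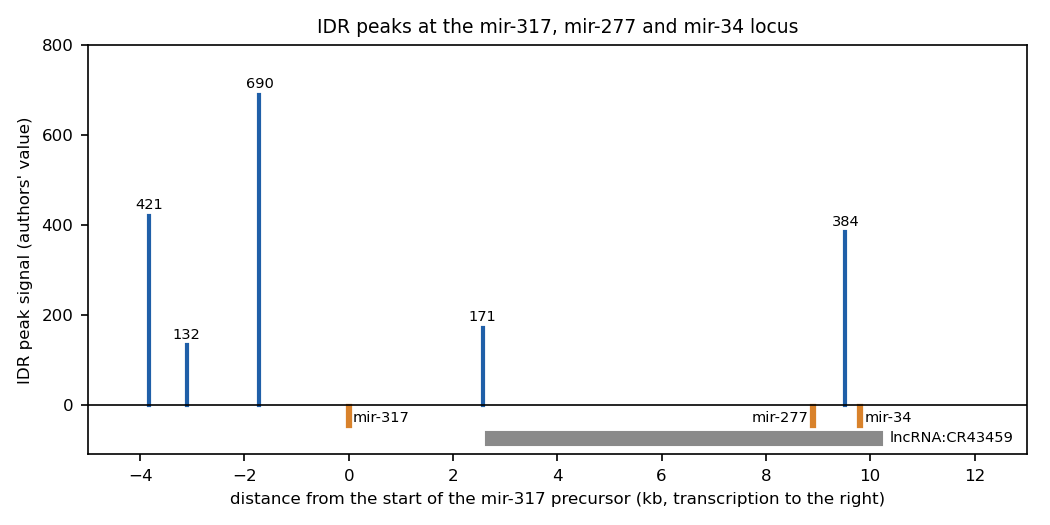
Signal of the 5 IDR peaks near mir-317, mir-277 and mir-34 against distance from the start of the mir-317 precursor in kb, with precursors as orange ticks and the primary transcript of mir-277 and mir-34 as a grey bar. Peaks of 421, 132 and 690 lie upstream of mir-317, one of 171 lies at the start of the primary transcript and one of 384 lies between mir-277 and mir-34.

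The sequences of 3 of these peaks differed in the motif GAGAGAG, which GAGA factor binds and which was searched on both strands. It is marked in capitals, so that CTCTCTC is the same motif on the other strand. The peak upstream of mir-317 held 7 matches, overlapping ones included, and those at mir-34 and mir-279 held 0. All are given 5′ to 3′ on the plus strand, which is the strand of these precursors.
mir-317 peak, chr3R:10089317-10089530: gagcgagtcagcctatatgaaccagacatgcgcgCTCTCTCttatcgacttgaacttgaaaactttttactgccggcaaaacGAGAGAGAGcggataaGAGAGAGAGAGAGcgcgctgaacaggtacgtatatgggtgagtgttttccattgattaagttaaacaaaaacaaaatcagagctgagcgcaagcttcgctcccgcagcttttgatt
mir-34 peak, chr3R:10100562-10100746: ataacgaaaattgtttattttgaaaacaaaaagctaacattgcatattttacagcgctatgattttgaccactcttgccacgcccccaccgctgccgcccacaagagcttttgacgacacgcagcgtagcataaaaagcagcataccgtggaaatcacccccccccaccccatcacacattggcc
mir-279 upstream peak, chr3R:29215069-29215180: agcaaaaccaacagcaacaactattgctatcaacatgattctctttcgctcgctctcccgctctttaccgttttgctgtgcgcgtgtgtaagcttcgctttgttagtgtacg
No match to the broad κB motif, to the E-box CACGTG or to the DRE motif TATCGATA was found in these 3 windows.

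Over all 134 peaks within 5000 bp of a precursor, GAGAGAG lay within 100 bp of the summit in 41 (30.6%), against 34.6% of all 4175 IDR peaks. The broad κB motif, which describes NF-κB sites, was found in 3 (2.24%), against 3.40%. The E-box CACGTG was found in 6 (4.48%), against 3.47%, the DRE motif in 2 (1.49%), against 1.63%, and Motif 1, a core promoter element, in 2 (1.49%), against 1.05%. Among the 14 peaks within 500 bp, 3 (21.4%) held GAGAGAG and 0 held the broad κB motif. Within 250 bp of the summit, 3 of these 14 (21.4%) held the broad κB motif, against 8.41% of all IDR peaks, and again 3 held GAGAGAG, against 40.2%. With 14 peaks each of these counts rests on few sites.

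Lists of miRNAs grouped by known role differed in how many members had an IDR summit within 5000 bp, set beside 35.8% of all precursors. Clustered members share peaks, so these counts are not of independent sites. All 3 members of let-7-Complex had one and none had one within 500 bp. Of 20 miRNAs that act in growth and cell death, 13 had one (65.0%), among them bantam, mir-8, mir-278 and 6 members of the mir-2 and mir-13 family, which target cell death genes. Of 19 reported to act on Toll or Imd signalling, 10 did (52.6%), namely mir-8, mir-317, mir-34, mir-277, mir-9a, let-7 and the mir-310 to mir-313 cluster. Of 17 with roles in fat body, insulin signalling and metabolism, 8 did (47.1%), including mir-14, mir-275, mir-305, mir-33 and mir-278. Of 16 neuronal and sensory miRNAs 5 did (31.2%), which were mir-9a, mir-279, mir-996, mir-276a and mir-87, and mir-124 and mir-7 did not. The 19 listed for Toll or Imd signalling form 10 transcription units, which include units without an IDR summit within 5000 bp. Of the 10 precursors with one, mir-317, mir-277 and mir-34 are in 1 unit and mir-310 to mir-313 in another. In the pooled relaxed list 12 of these 19 had a summit within 5000 bp, against 81.9% of all precursors.

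Of 4 muscle miRNAs, mir-92a and mir-92b had an IDR summit within 5000 bp and mir-1 and mir-133 did not. The Hox-linked mir-iab-4 and mir-iab-8, which are made from opposite strands of the same site, shared a peak of 168 at a distance of 1414 bp, and mir-10 also had one. All 7 precursors of the cluster of mir-310 to mir-313, mir-991, mir-992 and mir-2498 had one, through peaks of 119 near a start of qsm and 144 near HnRNP-K, on either side of it. Of 17 precursors listed as rich in testis 5 had one (29.4%), which were mir-972, mir-973 and mir-974 on X and mir-991 and mir-992 on 2R, and the rest of this list is on X. None of the 8 precursors of the mir-309 cluster, which clears maternal messages in the embryo, had one, although all 8 had a pooled relaxed summit within 5000 bp, against 81.9% of all precursors. The strongest was the same region for all 8, with a signal of 50.3 at rank 9044, and replicate 4 had no summit within 5000 bp of them. None of the 6 of mir-959 to mir-964 had an IDR summit within 5000 bp either, and none of these had a pooled relaxed summit within that distance.

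The largest seed family holds mir-2, mir-13, mir-11, mir-308, mir-5 and mir-6, with 14 precursors in 7 transcription units. Of these 8 had an IDR summit within 5000 bp, namely mir-11, mir-13a, mir-13b-1, mir-2a-1, mir-2a-2, mir-2b-2, mir-2c and mir-308, and none within 500 bp. All 14 had a pooled relaxed summit within 5000 bp, against 81.9% of all precursors. The precursors mir-2a-1, mir-2a-2 and mir-2b-2 lie in spi, which encodes a ligand of the epidermal growth factor receptor, and share peaks of 403 and 314, of which the second is 86 bp from a start of spi. The seed family of mir-310 to mir-313, mir-92a and mir-92b had an IDR summit within 5000 bp at all 6 precursors. These 6 form 2 transcription units.

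By arm, the share of precursors with an IDR summit within 5000 bp was 37.5% on 2L, 40.0% on 2R, 41.9% on 3L, 37.9% on 3R and 24.1% on X. The arm windows gave 20.5%, 21.9%, 20.5%, 21.6% and 17.1%. Arm 4 has 2 precursors, and mir-954 was the one with a peak.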

How the data were processed

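The values are from anti-GFP ChIP-seq peak lists of 2 replicates, as the authors deposited them for dm6. The deposited signal of a peak is the authors' own, and its scaling is not stated. A −log10 q was deposited beside it, 3.26 to 3.74 for IDR peaks, and an other column holds the summit offset. All 4175 IDR peaks were also in the pooled relaxed list, so an IDR peak need not be in each replicate. No read counts are given, so depth is unknown. Aligner and caller: not given in the sources used here.

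Summits were placed against Ensembl release 115 genes in 1-based Release 6 coordinates with Python 3.11.15, NumPy 2.4.6 and SciPy 1.17.1, and figures were drawn with matplotlib 3.10.9. Precursor coordinates were the same in Ensembl and RefSeq for all 260, and 0 peaks ran past an arm's end. Placeholder entries for mature RNAs were not counted as genes. Distance was taken from the summit to the nearer edge of the gene, and 0 means inside. Counting was tested on simulated data. No test across conditions is possible with 1 group, so shares are given with exact binomial intervals, and replicates may differ technically.

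The precursors and the lists were chosen with earlier results of these data known. The precursors named are those with an IDR summit within 500 bp, the 10 with the strongest peak from 500 to 5000 bp, those at the edge of the window, list members and the 5 with the largest replicate rank ratio. Other loci were named after their values were seen. Alternatives were other distances, the 5′ end, the peak interval, the stronger 2087 IDR peaks, joined clusters, each replicate alone, a q of at most 0.01 and other motif windows.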

Additional observations from a re-analysis of the deposited data

How the results depend on the processing

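The count of 14 precursors with an IDR summit within 500 bp was 9 at 200 bp, 26 at 1000 bp and 6 among the stronger 2087 peaks. Taking as many of the strongest peaks of 1 replicate alone gave 12 to 16, and other alternatives 10 to 17. The count of 93 within 5000 bp was 51 at 2000 bp, 83 to 98 with 1 replicate, and 62 to 129 otherwise. With q at most 0.01, the pooled list reached 29 precursors within 500 bp and 123 within 5000 bp, replicate 3 reached 30 and 141, and replicate 4 reached 38 within 500 bp. Requiring summits of both replicates within 100 bp of each other left 26 of 50 precursors within 500 bp. The broad κB motif was in 0 of the 14 peaks near precursors within 50 or 100 bp of the summit and in 3 within 250 bp. Counts of transcription units, hosts with a peak at a start and summits within 5000 bp with GAGAGAG stayed within 1.5 times under every alternative run. The lists give no read depth, so a precursor without a summit was not detected here rather than shown to be unbound, and relaxed lists include background regions. No paired analysis was possible because there is 1 group.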

Other observations

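The number in a miRNA name roughly follows the order in which miRNAs were described, and the groups here were chosen after the values were seen. Of the 85 precursors with a number up to 375 or a name without one, 40 (47.1%) had an IDR summit within 5000 bp, against 20 of 67 (29.9%) numbered 927 to 1017 and 33 of 108 (30.6%) numbered 2279 and above. Within 500 bp the counts were 6, 1 and 7. A protein-coding host on the same strand holds 26, 31 and 79 of these groups, and the first group's 85 precursors form 58 transcription units. The difference was not tested.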
